A study of Mus musculus with 77 samples.

Results

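The genes described here are the Rab GTPases, the proteins that assist them under a Rab name, and the TBC1D genes, in mouse bone marrow cells on the way from stem cell to granulocyte. They were taken from a deposited table of enhancers (mm9 coordinates) by the gene name written beside each enhancer: every row whose gene begins with Rab or Tbc1d followed by a digit. This rule gave 71 of the 10096 genes in the table and 476 of its 44002 enhancers. Of the 71 genes, 41 are Rab GTPases (one of them, Rab42-ps, carries the suffix of a pseudogene), 8 are Rab-named helpers and 22 are TBC1D genes, spread over 17 chromosomes. Neither the labels nor the table say how an enhancer was assigned to a gene.

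Cells were sorted from fresh bone marrow. The stages were LSK cells (lineage-negative, Sca-1+, ckit as labelled, the compartment of stem and multipotent progenitor cells), preGM (Lin-, Sca-1-, ckit+, CD150-, CD105-), GMP (ckit+, Lin-, Sca-1-, FcgRII/III+, CD150-, the granulocyte-monocyte progenitors) and granulocytes (Mac1+ and Gr-1+), all wild type, together with preGM cells of the genotype CEBPA KO. CEBPA is a transcription factor needed for the granulocyte lineage; the labels used here name no strain, age, deleting allele or way of deletion. ChIP-seq covered H3K27ac, the acetylation found at active enhancers, and H3K4me1, the methylation found at primed and active ones, in all 5 groups, the transcription factor PU.1 in all but granulocytes, and CEBPA in wild type preGM.

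Each ChIP-seq group had 2 libraries, but the table holds 1 pooled value per enhancer and group, and 1 expression value per gene and group. No spread between samples can therefore be computed, and no difference below was tested: the values are a description of these pooled columns. The value of a gene is the mean over its enhancers. Log2 ratios were taken after adding a small pseudocount (0.7 for H3K27ac, 2 for H3K4me1, 0.6 for PU.1 and 40 for expression), so they understate the difference of genes with low values. A gene is counted as higher or lower where it differed at least 2-fold on that scale, and the share of all 10096 genes counted by the same rule is given as the background. The median log2 ratio of all genes was itself off 0 in several comparisons, for H3K27ac by 0.42 between GMP and preGM and by 0.51 between granulocytes and LSK, for H3K4me1 by 0.34 between granulocytes and GMP, and for PU.1 by 0.37 between preGM and LSK and by -0.40 between KO and wild type preGM. Each log2 ratio of a single gene is therefore printed relative to the median gene of its comparison.

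Neither unit nor platform of the expression values is stated in the sources used here; none is 0 and the lowest is 2.04. The 4 stages form 1 set of columns, and wild type and KO preGM form another. The 2 wild type preGM columns have a Spearman correlation of 0.791 over genes, against 0.957 between preGM and GMP within the stage set, so values were compared only within a set, and levels of different genes were not compared. Stage markers sorted with the labels: the summed expression of 6 LSK markers went from 7645 in LSK to 699 in granulocytes, 4 GMP markers peaked in GMP at 38358, and 7 granulocyte markers reached 50921 in granulocytes. Cebpa expression was 208 in wild type and 48.3 in KO preGM; which part of the gene that value covers is not given.

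Rab GTPases are molecular switches on membranes. Exchange factors load them with GTP, and in that state they recruit effectors that move, tether or fuse vesicles; proteins with a TBC domain, which include the TBC1D family, stimulate GTP hydrolysis and switch Rabs off. In neutrophils, the main granulocytes of marrow, Rabs such as Rab27a and Rab3d are known for the release of granules, and Rab5, Rab7 and Rab20 for the maturation of phagosomes.

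The 71 genes had a median of 3 enhancers each, against 2 over all genes of the table. The numbers ran from 1 (18 genes) to 42 for Tbc1d8, followed by 33 for Tbc1d1, 32 for Tbc1d2, 26 for Tbc1d2b, 23 for Tbc1d7 and 20 for Rab8b. The 15 genes with 10 or more held 296 of the 476 enhancers. Enhancers were short, 192 bp in the median (15 to 935 bp). In the authors' stage annotation, 140 of the 476 (29.4%) were listed for granulocytes alone, against 21.2% of all enhancers, and 99 (20.8%) for preGM and GMP, against 29.1% of all. Tbc1d8 alone gave 30 of its 42 enhancers to the granulocyte-only class and Tbc1d2 gave 16 of 32; outside the 6 genes with the most enhancers the share was 86 of 300, or 28.7%. By the annotation of bound factors, 62.2% were listed with neither PU.1 nor CEBPA, 17.0% with PU.1 alone, 12.8% with CEBPA alone and 7.98% with both, against 59.5%, 19.1%, 12.3% and 9.21% of all enhancers.

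Between LSK and GMP the Rab and TBC1D genes stayed close to the table as a whole. From LSK to preGM none of the 71 differed 2-fold in H3K27ac, with a background of 0.456% of genes higher and 0.188% lower. Rab28 came closest, at 4.15 in preGM and 1.82 in LSK. From preGM to GMP, 3 were higher and none lower (background 9.05% higher and 0.178% lower): Rab7l1 at 1.04 in preGM and 4.02 in GMP, Rab14 at 3.19 and 7.62, and Rab5b at 2.92 and 6.54. Rab7l1 (also called Rab29) acts in lysosome and trans-Golgi traffic, Rab14 in traffic between endosomes and the Golgi, and Rab5b in early endosome fusion. The share of higher members, 4.23%, was below that of all genes, but above it by the strongest enhancer per gene (22.5% against 17.7%). Relative to the median gene only Rab7l1 of the 3 stayed 2-fold higher, at 1.02, against 1.07% of all genes. The members' median lay within 0.07 of the median gene in both steps (-0.07 and -0.03).

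Granulocytes stood apart from GMP. H3K27ac was at least 2-fold higher in 9 of the 71 genes (12.7%) and lower in 1 (1.41%), with a background of 7.81% higher and 7.57% lower; the counts were the same relative to the median gene. Of the 71, 49 lay above the median gene, and the members' median was 0.29 above it. Over single enhancers, 88 of 476 (18.5%) were higher and 15 (3.15%) lower, against 14.1% and 6.05% of all enhancers. Of the member enhancers, 29.4% were listed for granulocytes alone, against 21.2% of all. Such enhancers can be in the table through that stage only, so the H3K27ac counts of genes and enhancers are not independent of the listing. Its part in them was not tested. Expression was higher in 17 of the 71 (23.9%) and lower in 4 (5.63%), with a background of 11.4% higher and 18.9% lower, and the members' median lay 0.23 above the median gene. The share of higher genes was thus above the background in both layers, and the share of lower genes below it. The H3K27ac counts depend on the pseudocount: 14 members were higher and 3 lower with a pseudocount 4 times smaller (background 13.2% and 11.9%), and 1 was higher and none lower with one 4 times larger (background 1.56% and 2.15%), where the share of higher members no longer exceeded that of all genes. Markers of GMP and of monocytes also differed between these columns (4 GMP markers summed to 38358 in GMP and 3318 in granulocytes, 4 monocyte markers to 8762 and 2011). The monocyte marker Ccr2 went against its sum, at 79.6 in GMP and 109 in granulocytes. In bulk samples of this kind, fewer cells of a type and less RNA per cell cannot be told apart.

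**Figure D1:**
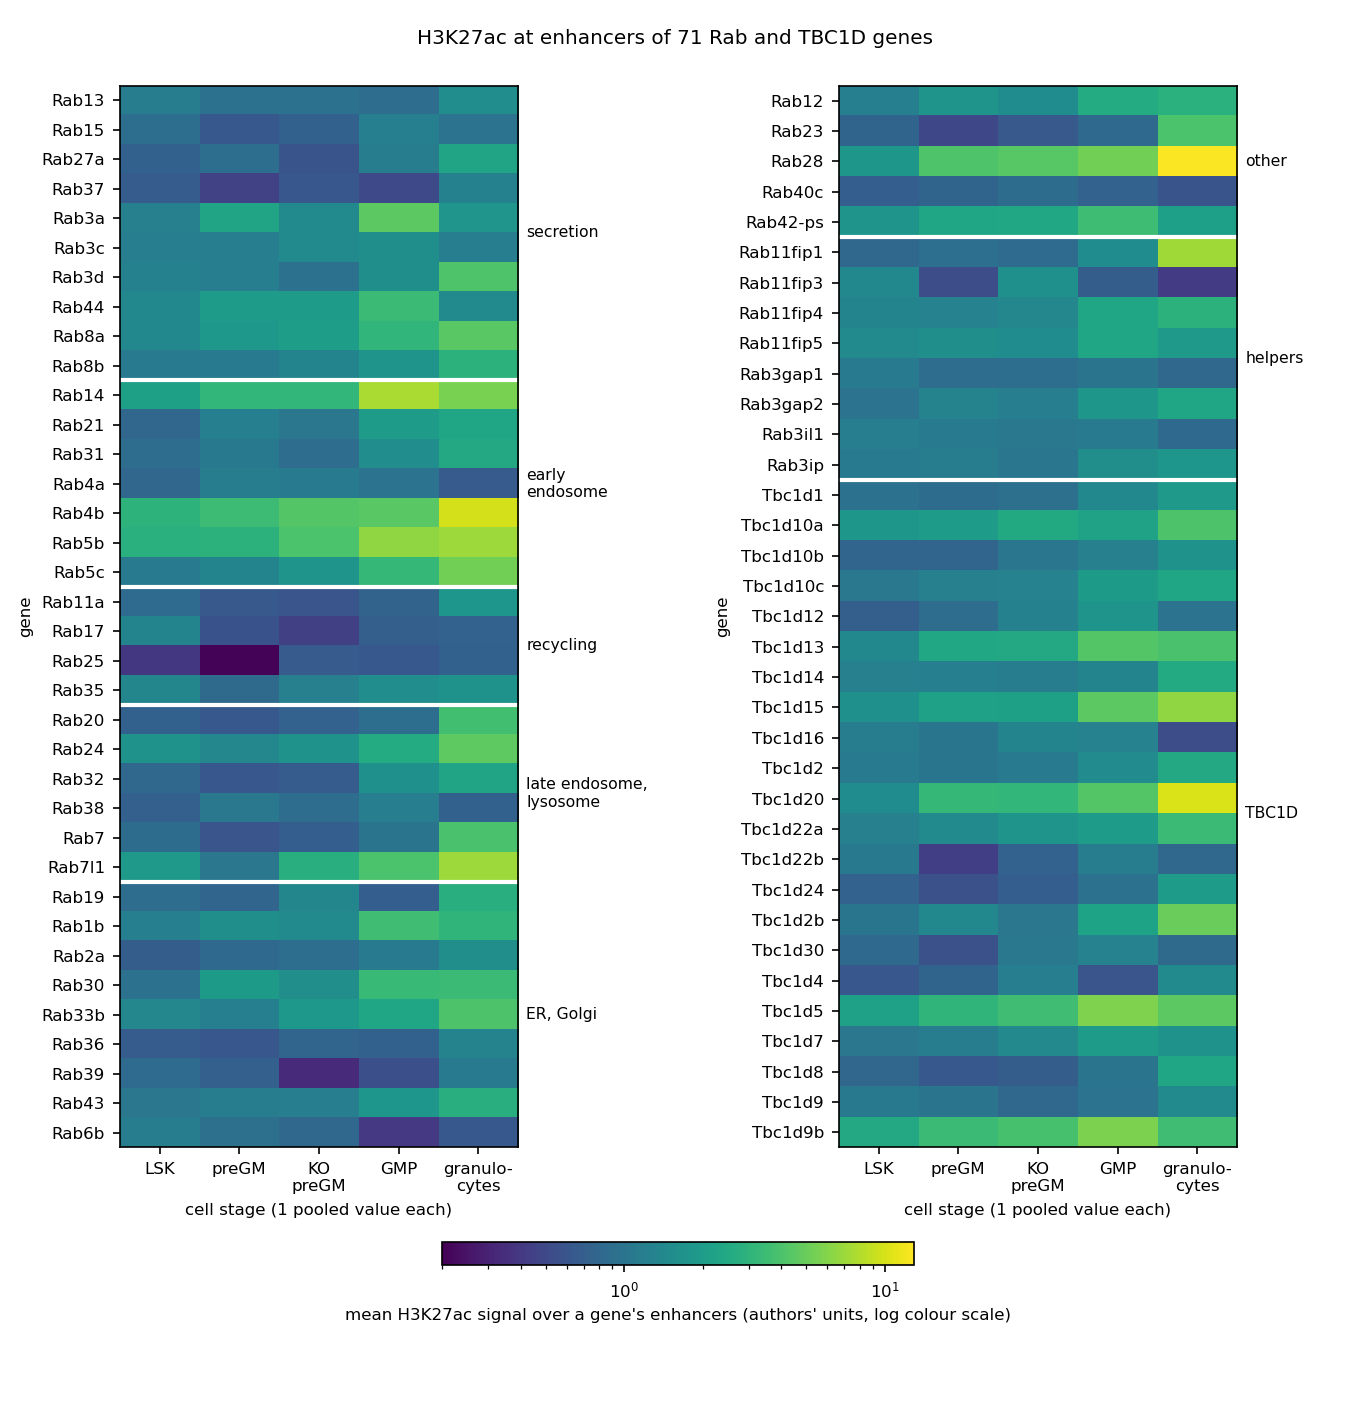
Mean H3K27ac signal over the enhancers of each of the 71 genes (rows, by role) in the 5 cell groups (columns, 1 pooled value each), on a log colour scale in the authors' units. Rab28, Tbc1d20 and Rab4b reach the highest granulocyte values (12.8, 10.2 and 9.96), while Rab3a and Rab44 are brightest in GMP.

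Among the 10 Rabs of secretion and granule release, Rab3d, a Rab of regulated exocytosis, had the largest log2 ratio between GMP and granulocytes in both layers on the pseudocount scale used here. Its H3K27ac was 1.25 in LSK, 1.19 in preGM, 1.59 in GMP and 4.09 in granulocytes, and its expression was 81.1 in LSK, 193 in preGM, 288 in GMP and 1404 in granulocytes. The mark was nearly level until GMP and then increased, whereas expression was higher at each later stage. Against GMP, the granulocyte log2 ratio was 1.05 for H3K27ac and 2.21 for expression. Rab37, also placed on secretory granules, had H3K27ac of 0.67 in LSK, 0.45 in preGM, 0.50 in GMP and 1.25 in granulocytes. Rab37 expression was 154 in LSK, 161 in preGM, 23.9 in GMP and 226 in granulocytes, so that GMP was the low stage and not LSK. Without the pseudocount, the expression ratio of Rab37 between GMP and granulocytes was larger than that of Rab3d. Rab27a, which docks granules at the plasma membrane, had expression of 299 in LSK, 415 in preGM, 664 in GMP and 1016 in granulocytes and H3K27ac of 0.74 in LSK, 0.91 in preGM, 1.16 in GMP and 2.29 in granulocytes. Rab27a was thus higher at each later stage in both layers, by less than 2-fold between GMP and granulocytes (0.67 and 0.66).

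Rab44, a large Rab with added domains that is known from immune cells, differed between the layers. Its expression was 80.9 in LSK, 713 in preGM, 957 in GMP and 1359.8 in granulocytes, the largest step lying between LSK and preGM, where it was 1 of only 2 members at least 2-fold higher and none was lower (background 1.61% higher and 0.802% lower). The other was Rab3gap2, a subunit of the Rab3 GTPase-activating complex, at 95.4 in LSK and 270.2 in preGM. H3K27ac at the 17 Rab44 enhancers was 1.41 in LSK, 2.00 in preGM, 3.44 in GMP and 1.48 in granulocytes in the mean, so it peaked in GMP and was close to the LSK level in granulocytes. Of these 17, 6 were at least 2-fold lower in granulocytes than in GMP and none was higher, while Rab44 expression was 0.56 above GMP. The 2 strongest in GMP lay side by side on chromosome 17, at chr17:29251671-29252006 (11.9 in GMP and 3.55 in granulocytes) and chr17:29252339-29252474 (11.6 and 3.21). No member was 2-fold higher in one layer and 2-fold lower in the other.

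Rab3a, the synaptic vesicle Rab, was the only member with H3K27ac at least 2-fold lower in granulocytes than in GMP. Its single enhancer gave 1.23 in LSK, 2.29 in preGM, 4.54 in GMP and 1.76 in granulocytes, a peak in GMP like that of Rab44. Rab3a expression was 552 in LSK, 405 in preGM, 416 in GMP and 244 in granulocytes. Rab8b, which carries vesicles to the plasma membrane, had 2831.9 in granulocytes against 1569 in GMP in expression and 2.91 against 1.74 in H3K27ac, and its relative Rab8a 437 against 222 and 4.48 against 3.10. The expression values of Rab13, Rab15 and Rab3c lay between 14.3 (Rab3c in GMP) and 59.4 (Rab15 in LSK) in all 4 stages. Rab15 had the largest H3K4me1 ratio of all members between GMP and granulocytes, with 6.12 in granulocytes against 1.14 in GMP. Its 2 enhancers were listed for granulocytes alone, so this ratio is not independent of that listing.

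**Figure D2:**
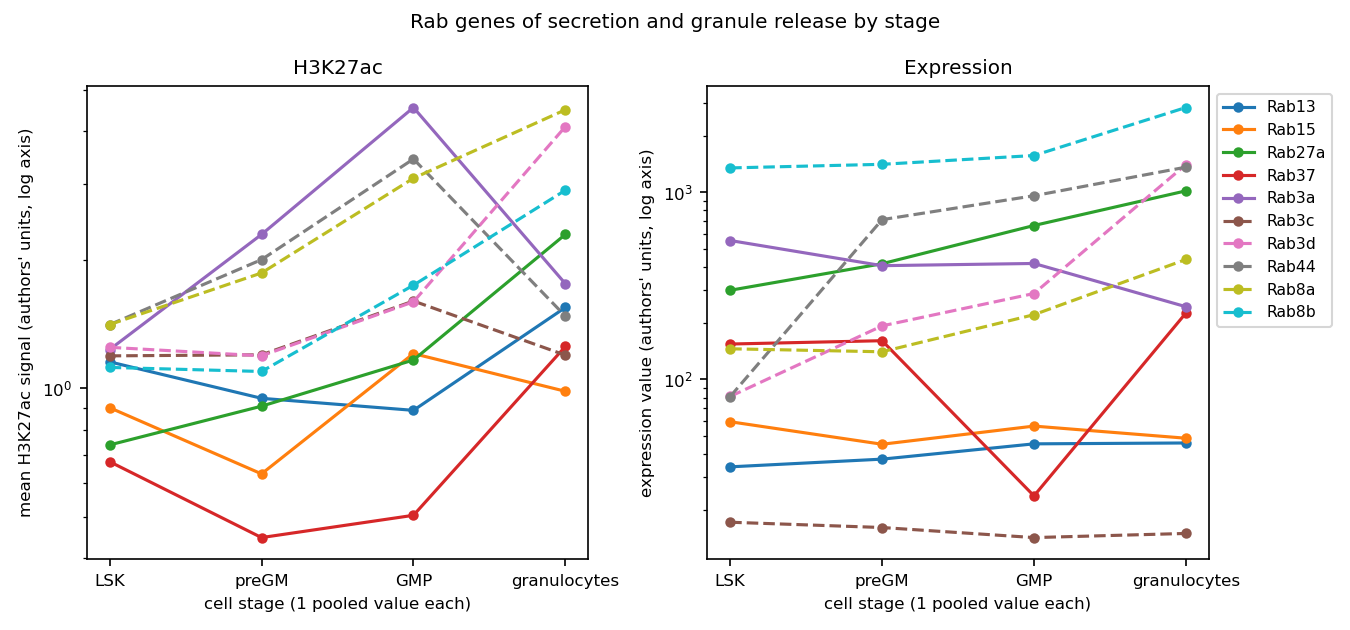
H3K27ac (left, mean signal over a gene's enhancers) and expression (right), both in the authors' units on log axes, for the 10 Rabs of secretion and granule release over the 4 wild type stages, 1 pooled value per point. Rab3d climbs from 81.1 to 1404 in expression, Rab37 dips to 23.9 in GMP, and the H3K27ac of Rab44 and Rab3a peaks in GMP.

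The late endosome, lysosome and phagosome Rabs had the highest role median for H3K27ac between GMP and granulocytes, 0.69 above the median gene over 6 genes. In expression their median was 0.18 above the median gene. The highest role median there was that of the endoplasmic reticulum and Golgi Rabs, 0.75. Rab20, which acts in phagosome maturation, had H3K27ac of 0.73 in LSK, 0.64 in preGM, 0.91 in GMP and 3.68 in granulocytes. Rab20 expression was 7.38 in LSK, 8.38 in preGM, 8.62 in GMP and 85.5 in granulocytes. Of its enhancers, 9 of 14 were at least 2-fold higher in granulocytes than in GMP with none lower, and 7 of the 14 were listed for granulocytes alone. Rab7, the Rab of fusion with lysosomes, had H3K27ac of 0.87 in LSK, 0.60 in preGM, 1.00 in GMP and 3.92 in granulocytes, and expression of 1682 in LSK, 1503 in preGM, 2660.3 in GMP and 3088 in granulocytes. The Rab7 mean rested on 1 of 3 enhancers, chr6:88003700-88003963, listed with CEBPA and for granulocytes alone, where H3K27ac was 0.35 in GMP and 7.56 in granulocytes. Rab24, a Rab linked to autophagy, had the largest expression ratio of all members between GMP and granulocytes, 3.25: its values were 68.5 in LSK, 76.5 in preGM, 68.1 in GMP and 938 in granulocytes. Its H3K27ac was 2.60 in GMP and 4.62 in granulocytes.

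Rab38 and Rab32, relatives that carry enzymes to melanosomes and other lysosome-related organelles, went apart. Rab38 expression was 1889 in LSK, 2482 in preGM, 1152 in GMP and 139.6 in granulocytes, the lowest expression ratio of all members (-2.66 between GMP and granulocytes), and its H3K27ac was 1.19 in GMP and 0.73 in granulocytes. Rab32 expression was 107 in LSK, 198 in preGM, 564 in GMP and 567 in granulocytes. Rab32 was the only member with at least 2-fold higher expression in GMP than in preGM (background 2.86%); 4 were at least 2-fold lower (background 2.89%), namely Rab37, Tbc1d10c, Rab4a and Rab38. Between preGM and GMP the levels of Rab32 and Rab38 thus went in opposite directions.

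In the early endosome group, Rab4b, of fast recycling, had 1 enhancer with H3K27ac of 2.97 in LSK, 3.51 in preGM, 4.46 in GMP and 9.96 in granulocytes and expression of 95.6 in LSK, 105 in preGM, 62.6 in GMP and 347 in granulocytes. Its paralog Rab4a had expression of 109 in LSK, 150.0 in preGM, 43.2 in GMP and 31.4 in granulocytes, lowest in the stage where Rab4b was highest. Rab5c, of early endosome fusion, had H3K27ac of 1.10 in LSK, 1.31 in preGM, 3.21 in GMP and 5.38 in granulocytes, higher at each later stage. Rab14 had 7.62 in GMP and 5.65 in granulocytes in H3K27ac, and 5029 and 2565 in expression. Among the recycling Rabs, Rab11a, which marks recycling endosomes, had expression of 324 in LSK, 528 in preGM, 472 in GMP and 1599 in granulocytes and H3K27ac of 0.76 in GMP and 1.81 in granulocytes. H3K27ac at its helper Rab11fip1, an effector that binds Rab11, was 0.80 in LSK, 0.91 in preGM, 1.52 in GMP and 7.16 in granulocytes, the largest H3K27ac log2 ratio of all members between GMP and granulocytes (1.81), with 5 of 7 enhancers at least 2-fold higher. Of these 7 enhancers, 6 were listed for granulocytes alone, so this ratio and count are not independent of that listing. Rab11fip1 expression was 26.4 in GMP and 42.8 in granulocytes, so the mark and the expression value differed by unlike amounts.

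Of the 9 endoplasmic reticulum and Golgi Rabs, 8 lay above the median gene in H3K27ac between GMP and granulocytes. Rab19 had H3K27ac of 0.89 in LSK, 0.78 in preGM, 0.70 in GMP and 2.80 in granulocytes and expression of 27.6 in LSK, 18.2 in preGM, 24.9 in GMP and 130.4 in granulocytes, flat until GMP in both layers. Rab2a, of traffic between the endoplasmic reticulum and the Golgi, had expression of 1146 in LSK, 1217 in preGM, 1657 in GMP and 3679 in granulocytes. Outside these roles, Rab23, known from cilia and Hedgehog signalling, had H3K27ac of 0.77 in LSK, 0.50 in preGM, 0.83 in GMP and 3.99 in granulocytes and expression of 54.1 in LSK, 63.2 in preGM, 69.9 in GMP and 258 in granulocytes. Rab28, known from photoreceptor cilia, had the highest granulocyte H3K27ac of all members, 12.8 against 5.32 in GMP, at 1 enhancer, chr5:42099299-42099710, listed for all 4 stages and for neither factor; its expression was 659 in GMP and 795 in granulocytes.

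Of the 22 TBC1D genes, 7 were at least 2-fold higher and 2 lower in expression between GMP and granulocytes (background 11.4% and 18.9%), and 1 was higher and none lower in H3K27ac (background 7.81% and 7.57%). The 1 in both layers was Tbc1d20, an activator of Rab1 and Rab18 hydrolysis, with H3K27ac of 1.51 in LSK, 3.22 in preGM, 4.29 in GMP and 10.2 in granulocytes and expression of 479.9 in LSK, 439.8 in preGM, 214 in GMP and 1362 in granulocytes. Tbc1d10c, also called carabin, an inhibitor of calcineurin, had expression of 299.8 in LSK, 265 in preGM, 66.3 in GMP and 886 in granulocytes, a dip in GMP of the same shape as that of Rab37, and H3K27ac of 1.94 in GMP and 2.37 in granulocytes. Tbc1d8 had expression of 132 in LSK, 102 in preGM, 208 in GMP and 749 in granulocytes. Tbc1d2b expression was 249.5 in LSK, 354 in preGM, 466 in GMP and 1268 in granulocytes. Tbc1d2, which switches off Rab7, had 57.6 in GMP and 265 in granulocytes. Tbc1d15, another activator of Rab7 hydrolysis, was lower instead: its expression was 1065 in LSK, 1831 in preGM, 2591 in GMP and 782 in granulocytes, while its H3K27ac was 4.52 in GMP and 6.51 in granulocytes. Tbc1d5, which acts on Rab7 at the retromer, had 499 and 215.6 in expression.

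Enhancers of 1 gene did not all follow the mean of the gene. At Tbc1d8, all 42 log2 ratios between granulocytes and GMP were above 0 (0.09 to 1.89) and 13 reached 2-fold. At Rab3d, 8 of 11 reached 2-fold and all lay between 0.45 and 1.49. Tbc1d2 spanned -0.96 to 1.60 over 32 enhancers and Tbc1d1, a regulator of glucose transporter traffic in muscle, -0.64 to 2.27 over 33, with 7 and 3 higher. Tbc1d9b had 4 of 11 lower and none higher. These enhancer ratios are as measured, without subtraction of a median. Listed for granulocytes alone were 30 of the 42 enhancers of Tbc1d8, 5 of 11 of Rab3d, 16 of 32 of Tbc1d2 and 2 of 33 of Tbc1d1. No enhancer of Tbc1d9b was so listed.

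**Figure D3:**
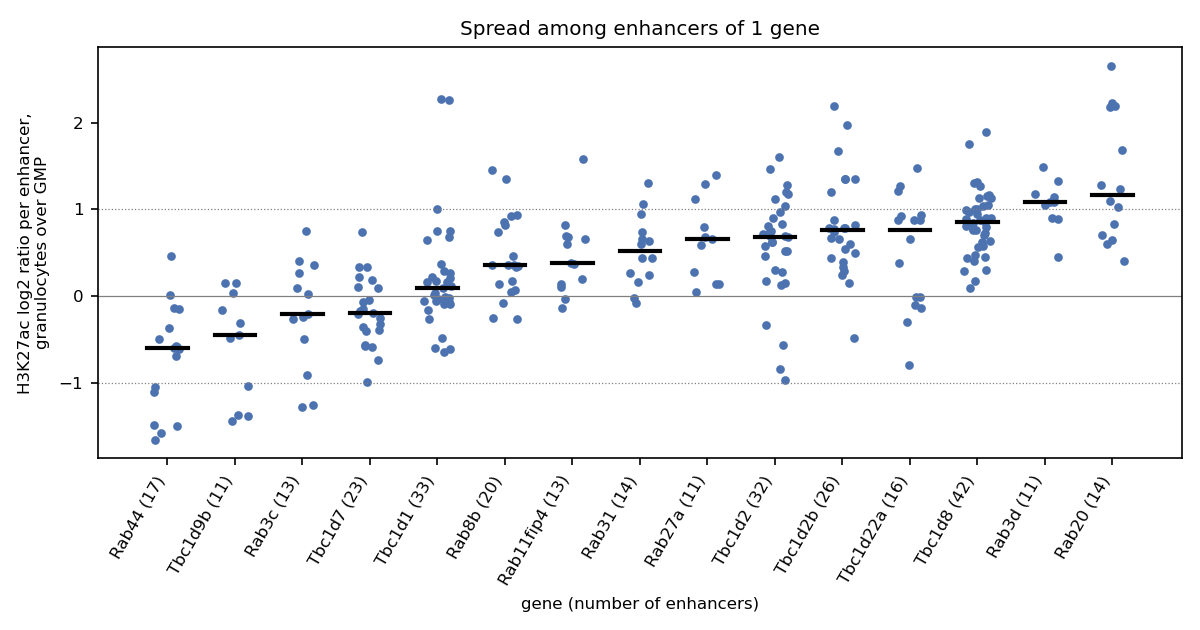
Log2 ratio of H3K27ac, granulocytes over GMP, for each enhancer (points) of the 15 genes with 10 or more enhancers, ordered by their median (bars); dotted lines mark 2-fold. Rab44 sits lowest, with 6 of 17 enhancers at least 2-fold lower, and Rab20 and Rab3d highest, with 9 of 14 and 8 of 11 at least 2-fold higher.

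H3K27ac and expression were both at least 2-fold higher in granulocytes than in GMP in 6 of the 71 genes, namely Rab3d, Rab4b, Rab19, Rab20, Rab23 and Tbc1d20, against 309 of the 10096 genes. Listed for granulocytes alone were 1 of 1 enhancers of Rab4b, 2 of 2 of Rab23, 7 of 14 of Rab20 and 5 of 11 of Rab3d. No enhancer of Rab19 or Tbc1d20 was so listed. The H3K27ac part of the count is therefore not independent of that listing. No member was lower in both, against 383 of all genes. Across the 71 genes the ratios of the 2 layers had a Pearson correlation of 0.52 (Spearman 0.59), and across all genes 0.46 (0.43). These are correlations across genes, which are not independent replicates, and each axis comes from 1 pair of pooled columns.

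**Figure D4:**
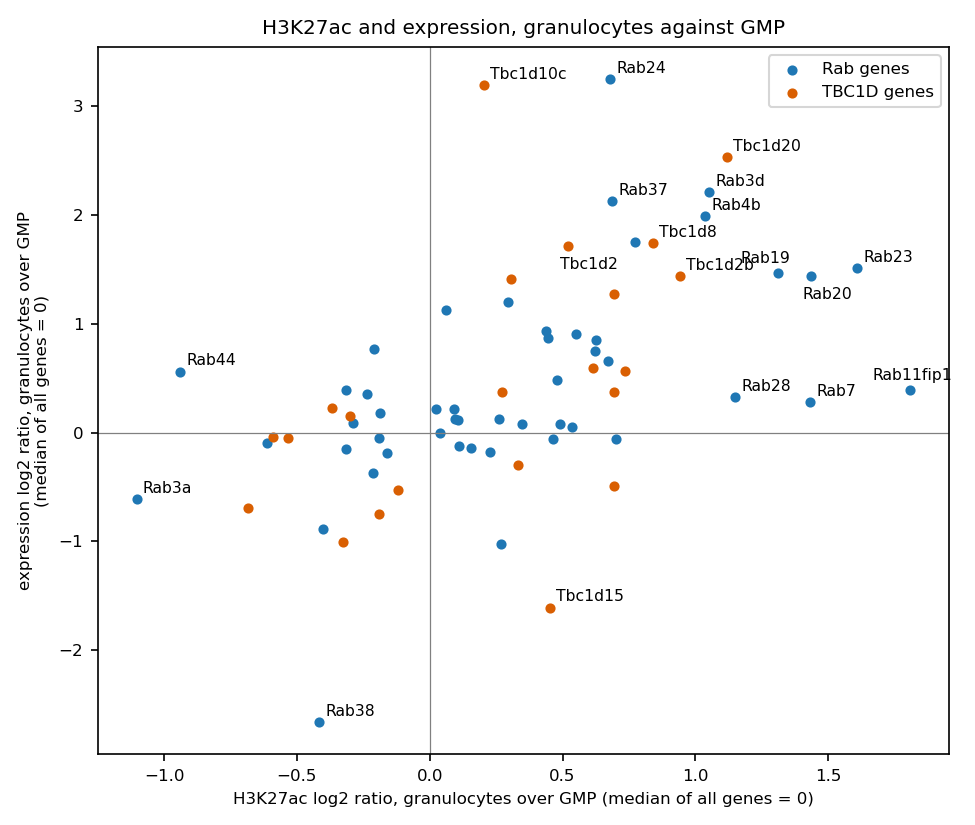
Log2 ratio of H3K27ac (horizontal) and of expression (vertical), granulocytes over GMP, for each of the 71 genes, with the median of all genes at 0 on both axes. Tbc1d20, Rab3d and Rab4b lie high on both axes, Rab11fip1, Rab7 and Rab28 reach 2-fold in H3K27ac only, Rab24 and Tbc1d10c in expression only, and Rab44 is lower in H3K27ac and higher in expression.

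Over the whole span from LSK to granulocytes, H3K27ac was at least 2-fold higher in 24 of the 71 genes and lower in none, with a background of 27.7% higher and 0.693% lower. That count, too, depends on the pseudocount. With one 4 times smaller, 38 were higher and 1 lower (background 37.4% and 3.11%). With one 4 times larger, 8 were higher and none lower (background 9% and 0.0396%). Relative to the median gene 11 were higher and 3 lower (background 9.4% and 6.92%); the 3 were Rab11fip3, Tbc1d16 and Rab6b. Expression was higher in 22 and lower in 5 (background 12.1% and 14.6%), and in 24 and 3 relative to the median gene (background 13.1% and 13.3%). Of the 71, 55 lay above the median gene in expression. Rab3d (3.66) and Rab44 (3.62) had the largest expression ratios and Rab38 (-3.34) the lowest. Higher in both layers were 13 members: Rab19, Rab20, Rab23, Rab24, Rab27a, Rab28, Rab33b, Rab3d, Rab4b, Rab8a, Tbc1d20, Tbc1d2b and Tbc1d8, against 733 of all genes. This comparison shares its granulocyte columns with the one above. Its H3K27ac counts are likewise not independent of the listing of enhancers for granulocytes alone.

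To show the sequence next to the genes that were higher in both layers, the 250 bases before the RefSeq gene start are given for Rab3d, Rab20 and Tbc1d20 (build GRCm38.p6, the strand of the gene, at chr9:21918184-21918433 on the minus strand, chr8:11478641-11478890 on the minus strand and chr2:152293578-152293827 on the plus strand), with Rab32, the one member at least 2-fold higher in GMP than in preGM in expression (chr10:10558208-10558457, minus strand). The enhancer coordinates are in another build and were not placed on these windows. Capitals mark GAGGAAG, a core that PU.1 recognises, read on either strand.
Rab3d: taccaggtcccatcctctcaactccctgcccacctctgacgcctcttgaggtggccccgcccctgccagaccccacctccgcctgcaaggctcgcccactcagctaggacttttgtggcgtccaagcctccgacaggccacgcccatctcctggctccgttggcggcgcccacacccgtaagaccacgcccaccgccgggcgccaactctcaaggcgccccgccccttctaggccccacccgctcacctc
Rab20: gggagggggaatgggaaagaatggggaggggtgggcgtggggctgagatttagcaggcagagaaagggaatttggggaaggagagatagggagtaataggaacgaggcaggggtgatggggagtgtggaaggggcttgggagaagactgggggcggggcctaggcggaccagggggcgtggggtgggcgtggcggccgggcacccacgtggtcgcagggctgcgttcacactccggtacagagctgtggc
Tbc1d20: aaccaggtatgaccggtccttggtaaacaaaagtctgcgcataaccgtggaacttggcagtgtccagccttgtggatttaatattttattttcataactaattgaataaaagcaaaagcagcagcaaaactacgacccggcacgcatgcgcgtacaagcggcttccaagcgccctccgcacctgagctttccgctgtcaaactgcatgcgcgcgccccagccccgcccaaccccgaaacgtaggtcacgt
Rab32: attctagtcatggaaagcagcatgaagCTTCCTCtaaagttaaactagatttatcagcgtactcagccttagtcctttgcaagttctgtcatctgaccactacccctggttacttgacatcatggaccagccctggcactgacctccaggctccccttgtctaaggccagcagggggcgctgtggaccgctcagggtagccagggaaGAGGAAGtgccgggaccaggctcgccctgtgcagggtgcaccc
Of the 71 members, 57 had an entry, with 79 promoters in all. GAGGAAG was in 4 of the 79 (5.06%), against 10.6% of all 32851 promoters of the same length, and TTGCNNAA, a pattern that CEBP factors recognise, was in 4 (5.06%), against 9.56%, both strands read and the 2 patterns not overlapping in these windows. Rab32 and Rab33b each held GAGGAAG at 2 places, and Rab12 and Tbc1d22b at 1; TTGCNNAA was in Rab11fip3, Rab1b, Rab43 and Tbc1d4. The 6 genes higher in both layers held neither pattern, which says only that these letters are not in those windows.

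H3K4me1 differed at fewer members than H3K27ac. No member differed 2-fold from LSK to preGM (background 0.0099% higher and 0.0099% lower) or from preGM to GMP (0.238% and 0.0099%). Between GMP and granulocytes 2 were higher and none lower (background 5.32% and 2.09%), Rab15 and Rab23, the latter at 2.27 in GMP and 7.43 in granulocytes. Each of these genes had 2 enhancers, all listed for granulocytes alone, so this count is not independent of that listing. Relative to the median gene the split was 1 higher and 3 lower (background 0.872% and 8.05%), the lower ones being Rab17, Tbc1d16 and Rab40c. Over single enhancers the share of higher ones was above that of the table: 74 of 476 (15.5%) were higher and 10 (2.10%) lower, against 9.69% and 2.81% of all enhancers. The part of enhancers listed for granulocytes alone in this share was not tested either. Rab3d, at 4.39 and 9.86, and Rab20, at 4.17 and 8.05, were higher by less than 2-fold on this scale (0.55 and 0.36), and Rab44 was lower, at 5.59 and 3.96.

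PU.1, the factor that with CEBPA sets up myeloid enhancers, had its strongest single-enhancer signals in wild type preGM at Tbc1d22a (chr15:86033244-86033411), Tbc1d14 (chr5:36905905-36905984) and Rab32 (chr10:10452636-10452792). The Tbc1d22a enhancer, listed with both factors, had 32.4 in LSK, 58.9 in wild type preGM, 49.4 in GMP and 30.7 in KO preGM. The Tbc1d14 enhancer, listed with PU.1 alone, had 36.2 in LSK, 56.6 in wild type preGM, 42.3 in GMP and 36.9 in KO preGM. The Rab32 enhancer, listed with both, had 46.0 in LSK, 44.8 in wild type preGM, 35.3 in GMP and 27.5 in KO preGM, so that LSK was level with preGM there. As a mean per gene, which is lower where unbound enhancers enter it, PU.1 was highest in wild type preGM at 2 genes with 1 enhancer each. Tbc1d20 (chr2:152119377-152120160) had 12.1 in LSK, 19.1 in wild type preGM, 16.1 in GMP and 8.11 in KO preGM. Rab39 (chr9:53514233-53514372), grouped here with the endoplasmic reticulum and Golgi Rabs, had 7.32 in LSK, 11.6 in wild type preGM, 10.4 in GMP and 3.59 in KO preGM. The means of Tbc1d14, Rab7l1 and Rab4b in wild type preGM were 9.08, 8.92 and 8.70, and the median member had 1.90, against 2.13 over all genes. From LSK to preGM and from preGM to GMP no member differed 2-fold (background 2.79% higher and 0% lower in the first step, 0.317% and 0.366% in the second). CEBPA signal in wild type preGM had a median of 0.59 over members and 0.58 over all genes. The member means were highest at Rab11fip4 (1.27), Rab11a (1.15), Tbc1d5 (1.03), Tbc1d14 (1.01) and Rab5b (0.94). At Rab11fip4 the mean was raised by 1 of 13 enhancers, chr11:79465552-79465775, with a CEBPA signal of 8.59; the other 12 lay between 0.17 and 1.96.

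In KO preGM, PU.1 signal was at least 2-fold lower at 2 of the 71 genes and higher at none, with a background of 3.39% lower and 0.0396% higher. The 2 were Rab39 (11.6 in wild type and 3.59 in KO) and Tbc1d20 (19.1 and 8.11). Relative to the median gene only Rab39 was at least 2-fold lower (background 0.386%; -1.15 against -0.78 for Tbc1d20), and the members' median was 0.07 above the median gene. The share of members was near the background. Next were Rab11fip5, a Rab11 effector, at 7.90 and 3.80, and Rab7l1 at 8.92 and 4.46.

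Single enhancers showed the difference by bound factor. Of the 81 member enhancers listed with PU.1 alone, 13 (16.0%) had at least 2-fold less PU.1 in KO, against 14.3% of all enhancers of that class. Of the 38 listed with both factors 8 (21.1%) did, against 27.7%; of the 61 listed with CEBPA alone 3 (4.92%), against 2.76%; and of the 296 with neither 1 (0.338%), against 0.921%. The Rab and TBC1D enhancers thus followed the classes of the table. The strongly CEBPA-bound Rab11fip4 enhancer named above was among the lower ones, with PU.1 of 8.50 in wild type and 2.59 in KO. Enhancers of 1 gene share their surroundings and are not independent of each other.

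**Figure D5:**
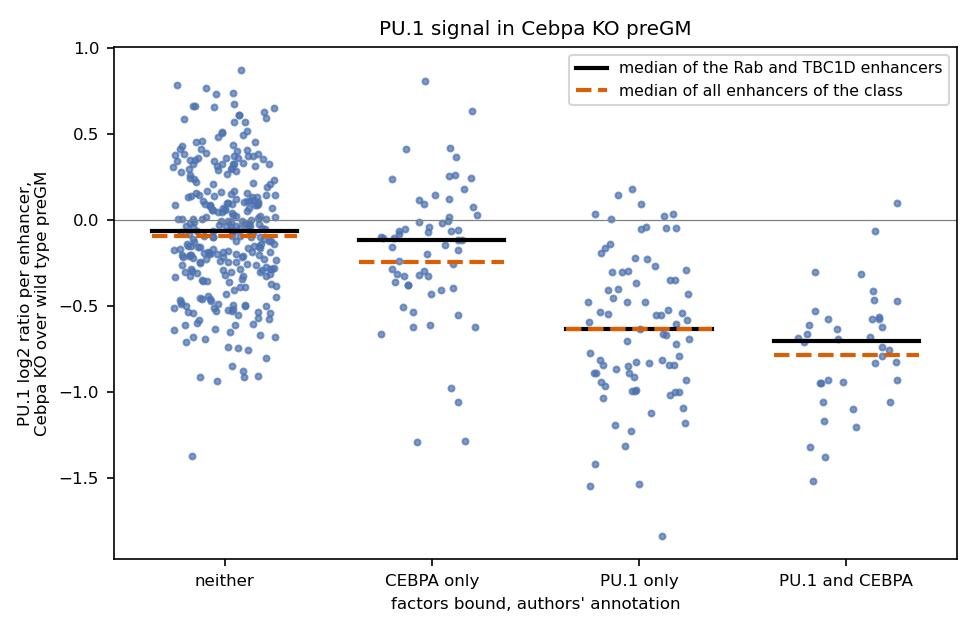
Log2 ratio of PU.1 signal, KO over wild type preGM, for each of the 476 enhancers (points, as measured), by the factors the authors list as bound. Black bars mark the median of the Rab and TBC1D enhancers and dashed bars that of all enhancers of the class. Both classes with PU.1 sit below those without, an order that the listing by PU.1 partly sets.

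H3K27ac and H3K4me1 differed 2-fold between KO and wild type preGM at no member (background 0.178% higher and 0.119% lower for H3K27ac, and 0% higher and 0.0099% lower for H3K4me1). This, too, depends on the pseudocount: with one 4 times smaller, 3 members were higher and none lower in H3K27ac (background 1.82% and 1.02%). The H3K27ac ratios furthest from the median gene were those of Rab7l1 (1.04 in wild type and 2.75 in KO) and Rab11fip3, a Rab11 effector (0.53 and 1.64), and, on the lower side, Rab3a (2.29 and 1.48) and Rab39 (0.72 and 0.33), followed by Rab27a (0.91 and 0.59). Expression differed 2-fold at no member either (background 0.277% higher and 0.406% lower), and the members' median was level with the median gene. Rab44 was the lowest, at 304 in wild type and 152 in KO, followed by Rab27a at 554 and 376. Rab38 was the highest, at 526 and 914, followed by Tbc1d14, which acts in recycling endosomes and autophagy, at 235 and 325. In the stage columns Rab44 and Rab27a were higher, and Rab38 lower, in GMP and granulocytes than in preGM. Marker genes moved in these columns too. In wild type and KO, 4 GMP markers summed to 9107 and 4714, and 7 granulocyte markers to 1067 and 317. The sums were 847 and 272 for 4 monocyte markers, and 3292 and 2502 for 6 LSK markers. Not all markers followed their sums: the LSK marker Ly6a had 128 and 229, and the granulocyte marker Mmp9 had 41.8 and 43.0. Cxcr2, at 570 and 87.7, was the largest part of the granulocyte sum. The part of these marker differences in the expression values of Rab44, Rab27a and Rab38 was not tested.

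The other genes of the Rab cycle, a list of 69 exchange factors, carriers, effectors and TBC genes of other names, had 54 genes in the table. Between GMP and granulocytes 7 of the 54 were at least 2-fold higher and 3 lower in H3K27ac (background 7.81% and 7.57%), and 12 were higher and 6 lower in expression (background 11.4% and 18.9%). Optn, a Rab8 effector, had H3K27ac of 1.22 in GMP and 11.8 in granulocytes and expression of 28.6 and 460.3. Dennd1c, of the DENN family of exchange factors, had 1.88 and 10.9 in H3K27ac and 40.2 and 488 in expression. At the low end were Sgsm2, a TBC protein, in H3K27ac (8.59 and 1.30), and Usp6nl, a TBC protein that acts on Rab5, in expression (314 and 45.3). The share of lower genes in H3K27ac was 1 of 71 among the Rab and TBC1D genes and 3 of 54 here. Between KO and wild type preGM none of the 54 differed 2-fold in H3K27ac, H3K4me1 or expression, and 1, Evi5, was lower in PU.1 (13.4 and 6.27).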

How the data were processed

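The members, gene lists and comparisons were chosen with earlier results of these data known. The table lists enhancers with 21 columns that match the labelled groups: 15 of ChIP-seq, deposited as signal (never negative, pooled by the authors from 2 libraries per group, 30 in all), and 6 of expression, deposited by the authors as a linear score of unstated unit. The listed RNA libraries are 3 per group; whether the expression columns come from them is not stated in the labels. A further 11 value columns were not used: 5 have no listed sample and 6 hold a quantity that is not described. Bowtie2, MACS2, bedtools, STAR, featureCounts and DESeq2 are named, per the submitters' processing notes, with build mm9; how signal was scaled, and the depth of each column, are not given there, so no interval could be had.

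Signal was averaged over each gene's enhancers, and log2 ratios were taken with pseudocounts near the 25th percentile of all values (Python 3.11.15, pandas 2.3.3, NumPy 2.4.6, SciPy 1.17.1, Matplotlib 3.10.9); the code was checked on simulated differences. With 1 value per group there was no test. Genes named were, per comparison, the 4 highest and 4 lowest members whose higher value reached the median of all genes, all secretion Rabs, the 6 with most enhancers, and the 5 with most CEBPA and PU.1; of other Rab-cycle genes at most 4 per comparison. Naming by expression level was dropped because levels are not known to be per length. Rab2a, single enhancers, and genes named for a promoter pattern or for both layers were chosen after their values were seen, as were the alternatives of counting each enhancer alone and of an expression floor of 100. Of the member symbols, 69 matched RefSeq and 2 matched as synonyms.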

Additional observations from a re-analysis of the deposited data

How the results depend on the processing

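No paired analysis was possible because the pooled columns carry no replicate numbers, and no library could be left out for the same reason. The counts of members at least 2-fold different depend on the pseudocount. Backgrounds are shares of all genes at least 2-fold higher and lower under the same setting. With pseudocounts 4 times smaller, H3K27ac gave 4 members between LSK and preGM (2 higher and 2 lower, background 2.14% and 2.34%). It gave 8 between preGM and GMP (all higher, 17.8% and 1.52%). Between GMP and granulocytes it gave 17 (14 higher and 3 lower, 13.2% and 11.9%). Between LSK and granulocytes it gave 39 (38 higher and 1 lower, 37.4% and 3.11%). KO and wild type differed at 3 (all higher, 1.82% and 1.02%). H3K4me1 gave 2 between preGM and GMP (all higher, 1.83% and 0.0792%). Between GMP and granulocytes it gave 11 (8 higher and 3 lower, 13.7% and 8.26%). PU.1 gave 2 between LSK and preGM (all higher, 6.73% and 0.198%). With pseudocounts 4 times larger, H3K27ac gave 0 between preGM and GMP (background 1.26% and 0.0099%). It gave 1 between GMP and granulocytes (higher, 1.56% and 2.15%) and 8 between LSK and granulocytes (all higher, 9% and 0.0396%). H3K4me1 gave 0 between GMP and granulocytes (0.0198% and 0%). Expression gave 1 between LSK and preGM (higher, 0.594% and 0.426%) and 2 between preGM and GMP (1 higher and 1 lower, 1.45% and 1.27%). Between LSK and granulocytes it gave 15 (14 higher and 1 lower, 8.42% and 8.54%).

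With the median of all genes subtracted, H3K27ac gave 1 member between preGM and GMP and 14 between LSK and granulocytes (11 higher and 3 lower, against 24 and 0), H3K4me1 gave 4 between GMP and granulocytes (1 higher and 3 lower, against 2 and 0), and PU.1 gave 1 between KO and wild type. With the strongest enhancer of each gene in place of the mean, H3K27ac gave 16 between preGM and GMP. All were higher, 22.5% of members against a background of 17.7% higher and 0.475% lower. Between LSK and granulocytes it gave 38, all higher, or 53.5% (background 37.6% and 2.01%). H3K4me1 gave 4 between GMP and granulocytes (3 higher and 1 lower, background 6.73% and 3.46%). PU.1 gave 9 between LSK and preGM, all higher, or 12.7% (background 9.8% and 0%). Between KO and wild type it gave 10, all lower, or 14.1% (background 0.099% higher and 11.1% lower). The cause of these differences was not tested. Leaving out low values kept all 17 counts within 1.5 times, and an expression floor of 100 in either group kept all 5 expression counts there. No gene named for a 2-fold difference reversed its direction under these alternatives. Counted one enhancer at a time, the share at least 2-fold different was 21.6% for H3K27ac and 17.6% for H3K4me1 between GMP and granulocytes, against 14.1% and 2.82% of member genes; over all enhancers of the table it was 20.1% and 12.5%.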
